A study of Homo sapiens with 16 samples.

Results

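The genes described here are 9 that build the MHC class I antigen presentation pathway: the heavy chain genes HLA-B, HLA-C, HLA-E and HLA-F, the light chain gene B2M, the peptide transporter subunits TAP1 and TAP2, the immunoproteasome subunit PSMB9 and the transcriptional coactivator NLRC5. They were taken from the count table by their symbols, and all 9 were found among its 57820 genes and passed the filter on low counts in each comparison.

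RNA-seq had been performed in Jurkat and HSB-2, established cell lines of T-lineage acute lymphoblastic leukemia (T-ALL) labelled TAL1+, to measure what partial loss of the deubiquitylating enzyme USP7 does to transcription. Each line gave 4 groups of 2 libraries, 16 in all: wild-type cells, cells with a scrambled shRNA, and cells with either of 2 lentiviral hairpins, USP7 shRNA4057 or USP7 shRNA4058, which target different exons of USP7. Cells given the USP7 hairpins were sorted for GFP or selected with puromycin per the study's methods, and which library had which selection, and how the scrambled cells were handled, is not given in the sources used here. Nothing in the labels tells if the replicates came from separate transductions, so p-values measure only the spread between these libraries, which may be technical.

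Total counts ranged from 76.6 to 235 M reads per library. Levels are CPM, a gene's count scaled to a common library size after TMM normalization, given for each library or as mean ± SD with n = 2, and the lowest count of a member in any library was 939 (HLA-F in a Jurkat scrambled library). Replicates of a group differed by more than counting noise in every group (chi-square per degree of freedom of 5.41 to 20.2 over genes). A gene is called higher or lower here when the quasi-likelihood test of edgeR gave an adjusted p, corrected over all genes tested, under 0.05. USP7 lay at 384 and 387 CPM in the Jurkat scrambled libraries against 140.0 and 145 with shRNA4057 and 244 and 242 with shRNA4058. In HSB-2 it lay at 227 and 220.1 CPM in the scrambled libraries against 144 and 149 and 162 and 156, and in both lines no shRNA library reached a control library.

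In the class I pathway, the proteasome cuts cytosolic proteins into peptides, and PSMB9 replaces a constitutive catalytic subunit in the immunoproteasome that interferon induces. The TAP1 and TAP2 heterodimer pumps the peptides into the endoplasmic reticulum, where they are loaded onto a heavy chain bound to beta-2-microglobulin, the product of B2M. HLA-B and HLA-C present peptides to CD8 T cells and are read by killer cell receptors, HLA-E presents leader peptides of other heavy chains to NKG2 receptors, HLA-F is a nonclassical heavy chain, and NLRC5 binds no DNA itself but drives class I genes through the factors on their SXY promoter module. T cells carry class I on their surface in health, and in leukemia its level bears on how well the cells are seen by other lymphocytes.

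On GRCh37, 7 of the 9 genes lie in the MHC on chromosome 6: HLA-F from 29690552 to 29706305, HLA-E from 30457286 to 30461971, HLA-C from 31236526 to 31239907, HLA-B from 31321649 to 31334844, TAP2 from 32789610 to 32806516, PSMB9 from 32811913 to 32827628 and TAP1 from 32812986 to 32821593. B2M lies on chromosome 15 from 45003556 to 45011049, and NLRC5 on chromosome 16 from 57023397 to 57117443. All are protein-coding. The strand setting of the counting is not given in the sources used here, and the gene model of PSMB9 overlaps PSMB8, TAP1 and PSMB8-AS1, that of TAP1 overlaps PSMB8-AS1 and that of HLA-F overlaps HLA-F-AS1, so reads in the shared stretches are uncertain. Heavy chain genes are near copies of each other, and how their shared reads were divided is likewise not given.

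Several of these genes are known to share interferon-responsive and NF-kB-responsive promoter elements beside the SXY module, and the promoters of HLA-B, HLA-F, B2M and TAP1 are shown because they belong to a classical heavy chain, a nonclassical heavy chain, the light chain and the transporter. The sequences are the 250 bases before the start site in RefSeq on GRCh38.p14, each written 5′ to 3′ in the direction of transcription, and 7 of the 9 genes had an entry (HLA-E and NLRC5 did not). Capitals mark every match to one of 4 motifs searched on both strands: GAA or GAAA followed after any 2 bases by GAAA (the IRF type), GGG, any 2 bases, TT, any 1 base and CC (the NF-kB type), CCAAT (the CCAAT box) and TGACG (the cyclic AMP response element type).
HLA-B (chr6:31357180-31357429, minus strand): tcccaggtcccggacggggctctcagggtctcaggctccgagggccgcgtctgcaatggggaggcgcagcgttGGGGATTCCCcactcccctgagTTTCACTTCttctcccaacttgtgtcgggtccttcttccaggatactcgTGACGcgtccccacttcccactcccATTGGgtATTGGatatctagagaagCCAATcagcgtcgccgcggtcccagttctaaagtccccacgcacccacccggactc
HLA-F (chr6:29723184-29723433, plus strand): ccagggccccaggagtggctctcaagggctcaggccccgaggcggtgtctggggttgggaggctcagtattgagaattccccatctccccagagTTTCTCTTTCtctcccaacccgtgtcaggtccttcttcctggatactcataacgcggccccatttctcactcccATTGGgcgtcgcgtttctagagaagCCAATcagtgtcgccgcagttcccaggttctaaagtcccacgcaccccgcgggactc
B2M (chr15:44711267-44711516, plus strand): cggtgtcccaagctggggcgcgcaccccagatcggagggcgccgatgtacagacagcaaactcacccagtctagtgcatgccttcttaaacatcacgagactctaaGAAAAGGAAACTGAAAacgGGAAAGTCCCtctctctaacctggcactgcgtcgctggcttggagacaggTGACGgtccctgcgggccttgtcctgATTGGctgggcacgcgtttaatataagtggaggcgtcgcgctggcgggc
TAP1 (chr6:32853705-32853954, minus strand): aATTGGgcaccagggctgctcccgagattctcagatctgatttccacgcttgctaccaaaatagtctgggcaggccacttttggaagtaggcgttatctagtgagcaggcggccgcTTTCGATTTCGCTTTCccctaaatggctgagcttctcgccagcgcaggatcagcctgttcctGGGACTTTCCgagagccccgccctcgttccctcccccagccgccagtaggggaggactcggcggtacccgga
The IRF type was found in 6 of the 7 genes with an entry, all but PSMB9, and in 9.08% of 35116 RefSeq promoters of this length. The NF-kB type was found in 3 (HLA-B, B2M and TAP1) and in 5.07% of all promoters, the CCAAT box in 6 (all but TAP2) and in 32.0%, and the TGACG motif in 5 (HLA-B, HLA-C, B2M, TAP2 and PSMB9) and in 21.2%. In HLA-B and HLA-F the IRF type match ended at position -147 and in HLA-C at -143, counted from the start site. In B2M and TAP1 there were 2 IRF type matches that overlap each other. The TAP1 and PSMB9 windows face away from each other on opposite strands and overlap at their far ends, where both hold the same CCAAT letters. TAP1 had another RefSeq entry with a start site further downstream, in whose window no motif was found. These matches are letters in a window and say nothing of whether a factor was bound in these cells.

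In HSB-2, knock-down of USP7 was accompanied by higher levels of 8 of the 9 genes against scrambled cells, where 38.1% of all genes tested were called, 20.3% higher and 17.8% lower. HLA-B, HLA-C, HLA-F and PSMB9 stood at log2 differences near 1 above the scrambled level, HLA-E, TAP1, B2M and TAP2 rose less, and NLRC5 was not called. The median log2 fold change of the 9 genes was 0.67 beside -0.02 for all genes tested. In bulk RNA, more cells with a transcript and more transcript per cell cannot be told apart.

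Among the heavy chains, HLA-B was at 659 and 675 CPM in the wild-type, 453 and 474 in the scrambled, 966 and 937 in the shRNA4057 and 1027 and 1056 in the shRNA4058 libraries. Every shRNA library thus lay above both kinds of control, and the scrambled libraries were the lowest. The pooled log2 fold change of HLA-B was 1.11 (SE 0.063, adjusted p 4.2e-06) against scrambled and 0.57 (SE 0.057, adjusted p 4.7e-04) against wild-type cells. HLA-C was at 374 and 371 CPM in the wild-type, 273 and 292 in the scrambled, 539 and 521 in the shRNA4057 and 599 and 613 in the shRNA4058 libraries. Its groups fell in the same order without overlap, and HLA-C changed on the log2 scale by 1.01 (SE 0.078, adjusted p 2.1e-05) against scrambled and 0.60 (SE 0.071, adjusted p 9.5e-04) against wild-type cells. HLA-F, at a much lower level, was at 21.2 and 22.7 CPM in the wild-type, 15.6 and 16.1 in the scrambled, 31.1 and 30.2 in the shRNA4057 and 39.7 and 42.6 in the shRNA4058 libraries. It had the largest log2 fold change of the 9 genes, 1.18 (SE 0.14, adjusted p 2.6e-04) against scrambled cells, and 0.70 (SE 0.14, adjusted p 0.0084) against wild-type cells.

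HLA-E was at 357 and 363 CPM in the wild-type, 277 and 284 in the scrambled, 437 and 423 in the shRNA4057 and 452 and 464 in the shRNA4058 libraries. The order of the groups was again the same, and the change had the smallest value among the 4 heavy chains, 0.67 (SE 0.055, adjusted p 3.0e-05) against scrambled and 0.30 (SE 0.05, adjusted p 0.004) against wild-type cells. When GC content and gene length were corrected for, the HLA-E value against scrambled was 0.43 and that against wild-type 0.20, both still called. Because shared reads can be assigned to the wrong heavy chain, the 4 genes were also summed to 1 feature, whose log2 fold change was 0.98 (SE 0.065, adjusted p 9.9e-06) against scrambled and 0.52 (SE 0.059, adjusted p 8.4e-04) against wild-type cells. Leaving out either wild-type library left HLA-E (adjusted p 0.071 without replicate 1 and 0.058 without replicate 2) and HLA-F (0.098 and 0.070) without a call against wild-type cells, while HLA-B and HLA-C kept theirs.

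**Figure D1:**
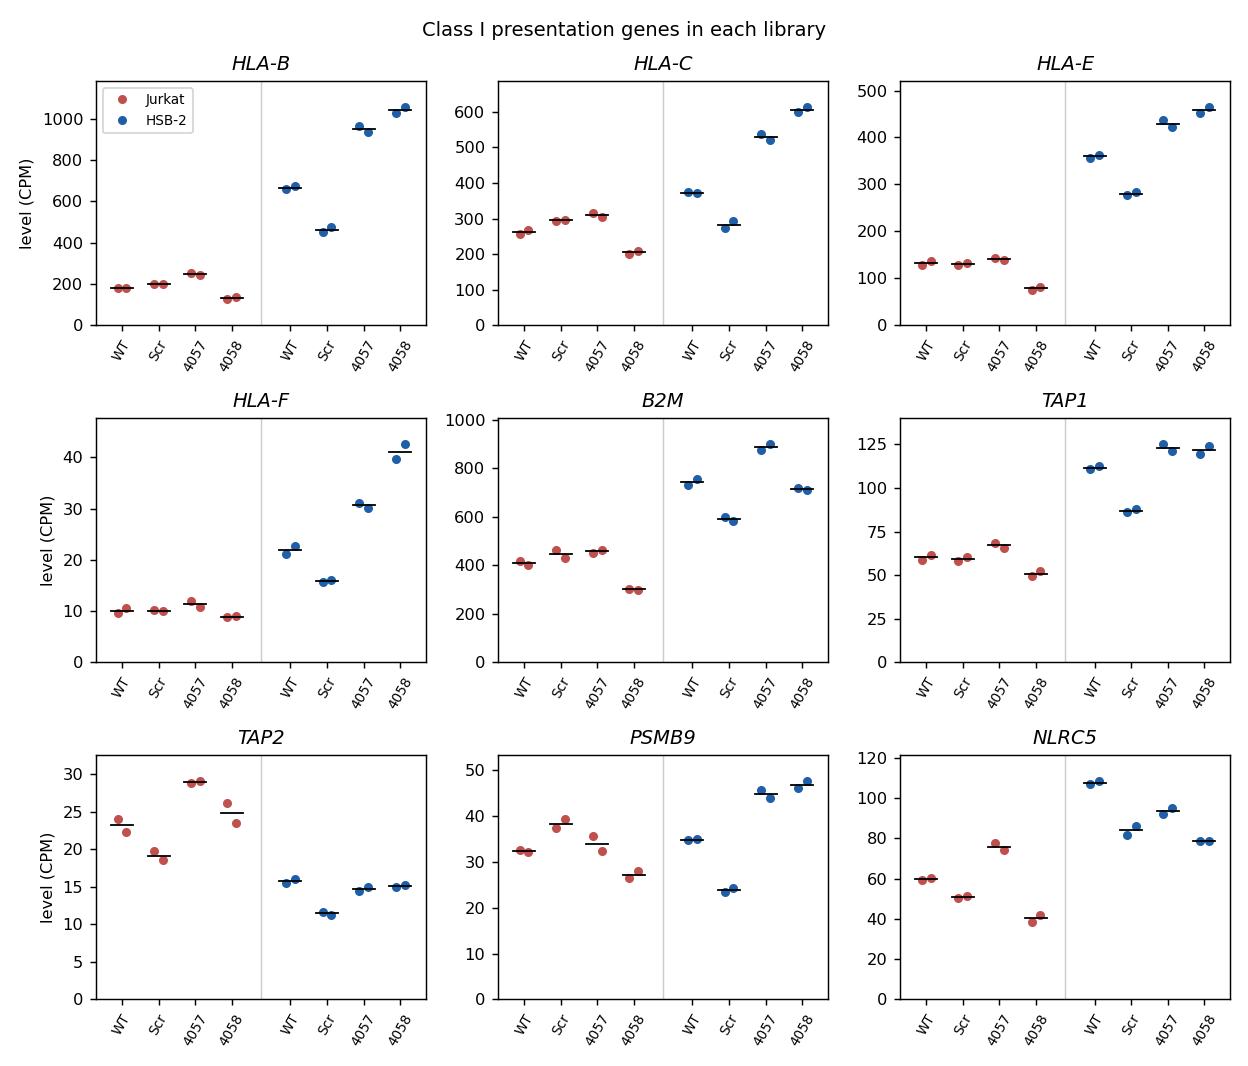
TMM-normalized CPM (y axis, linear from 0, one scale per panel) of each of the 9 genes in each of the 16 libraries, by group (x axis: WT is wild-type, Scr scrambled, and the numbers are those of the USP7 shRNAs), with Jurkat libraries in red and HSB-2 libraries in blue and a line at each group mean. In HSB-2 all 4 shRNA libraries of HLA-B lay between 937 and 1056 CPM and above every control library, whereas in Jurkat the shRNA4057 libraries lay above and the shRNA4058 libraries below the controls.

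B2M, which every class I heavy chain needs to reach the surface, was at 731 and 757 CPM in the wild-type, 598 and 582 in the scrambled, 877 and 899 in the shRNA4057 and 719 and 710.0 in the shRNA4058 libraries. All shRNA libraries were above the scrambled libraries, but those with shRNA4058 overlapped neither the shRNA4057 nor the wild-type range and lay just under the latter. The pooled log2 fold change of B2M was 0.45 (SE 0.11, adjusted p 0.0093) against scrambled and 0.10 (SE 0.11, adjusted p 0.52) against wild-type cells, so it was called against scrambled cells only. Leaving out either scrambled library ended that call (adjusted p 0.075 without replicate 1 and 0.080 without replicate 2).

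Of the transporter subunits, TAP1 was at 111 and 112 CPM in the wild-type, 86.2 and 87.7 in the scrambled, 125 and 121 in the shRNA4057 and 119 and 124 in the shRNA4058 libraries. Its shRNA libraries lay above both controls, at 0.50 (SE 0.051, adjusted p 1.1e-04) on the log2 scale against scrambled cells and 0.13 (SE 0.046, adjusted p 0.076) against wild-type cells. Correcting for GC content and length brought the former to 0.24, which was still called. TAP2 was at 15.5 and 16.03 CPM in the wild-type, 11.7 and 11.3 in the scrambled, 14.4 and 15.0 in the shRNA4057 and 15.0 and 15.3 in the shRNA4058 libraries. Here the scrambled libraries alone stood low, and the shRNA libraries lay between them and the wild-type libraries, giving 0.38 (SE 0.069, adjusted p 0.0025) against scrambled and -0.08 (SE 0.063, adjusted p 0.4) against wild-type cells.

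PSMB9, the immunoproteasome subunit, was at 34.7 and 35.0 CPM in the wild-type, 23.4 and 24.2 in the scrambled, 45.7 and 43.96 in the shRNA4057 and 46.1 and 47.5 in the shRNA4058 libraries. It rose against both controls, with log2 fold changes of 0.95 (SE 0.06, adjusted p 7.0e-06) against scrambled and 0.39 (SE 0.053, adjusted p 0.0017) against wild-type cells. NLRC5, the transcriptional coactivator, was not called against scrambled cells and was lower than in wild-type cells. It was at 107 and 108 CPM in the wild-type, 81.9 and 86.2 in the scrambled, 92.0 and 95.02 in the shRNA4057 and 78.6 and 78.8 in the shRNA4058 libraries, so that every shRNA library lay below both wild-type libraries while the scrambled libraries lay between the hairpins. On the log2 scale it changed by 0.04 (SE 0.09, adjusted p 0.76) against scrambled and -0.33 (SE 0.087, adjusted p 0.028) against wild-type cells, and the latter call was lost without either wild-type library (adjusted p 0.16 and 0.18) or without shRNA4058 replicate 1 (0.054).

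Against wild-type cells, where 25.1% of genes were called, 13.3% higher and 11.8% lower, 5 of the 9 genes were higher in HSB-2 with USP7 shRNA (HLA-B, HLA-C, HLA-E, HLA-F and PSMB9), NLRC5 was lower, and B2M, TAP1 and TAP2 were not called. With the hairpins as separate groups TAP1 (0.13, adjusted p 0.0041) and B2M (0.099, adjusted p 0.011) were called higher as well. TAP1 was also called higher with each hairpin alone (adjusted p 0.0096 and 0.017). The median over the 9 genes was 0.30 beside -0.0083 for all genes tested. The controls themselves differed: scrambled cells were lower than wild-type cells in all 9 genes, by log2 fold changes from -0.55 (PSMB9) to -0.34 (B2M, adjusted p 5.1e-08), with 34.1% of genes called and 17.9% called lower. The pooled comparisons with the 2 controls share their 4 shRNA libraries, so the size of the difference is set in part by which control is used.

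**Figure D2:**
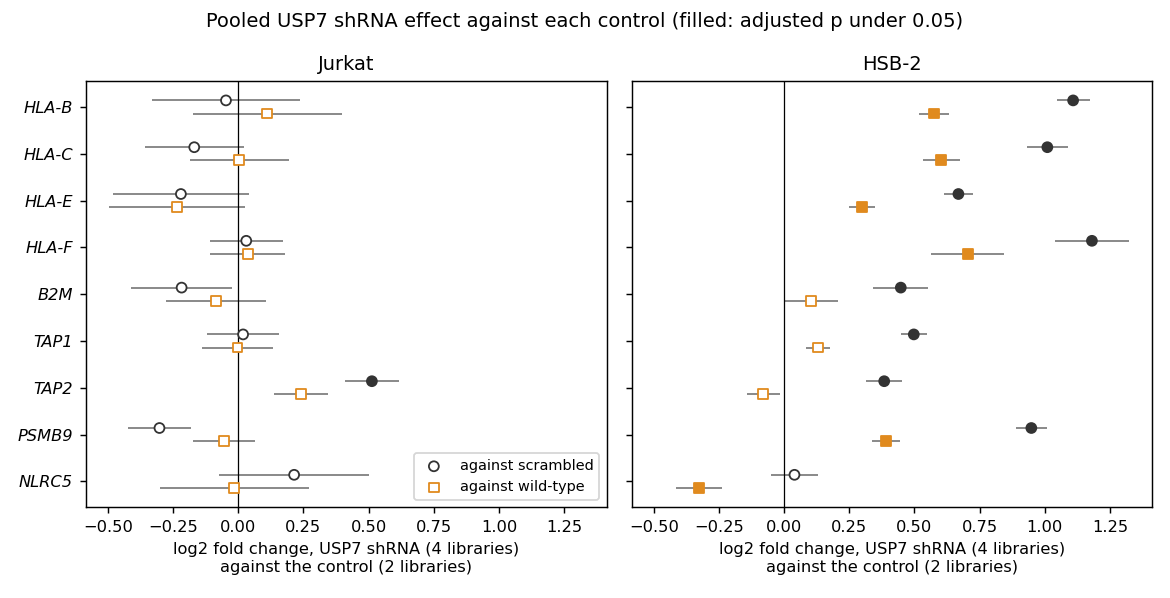
Pooled log2 fold change (x axis) of the 9 genes (rows) in Jurkat (left) and HSB-2 (right), 4 USP7 shRNA libraries against 2 scrambled libraries (circles) or 2 wild-type libraries (squares), with bars of 1 SE. Filled symbols had an adjusted p under 0.05: 8 circles and 6 squares in HSB-2 but 1 circle, TAP2, and no square in Jurkat.

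Each hairpin was then compared on its own, in the fit of all 16 libraries. In HSB-2, all 9 genes were higher with shRNA4057 than in scrambled cells (43.6% of genes called, 21.9% higher), with log2 fold changes from 0.15 (NLRC5, adjusted p 0.0057) to 1.04 (HLA-B). The NLRC5 call was lost without scrambled replicate 1 (adjusted p 0.10) or shRNA4057 replicate 2 (0.074). With shRNA4058, 8 were higher (52.8% called, 26.6% higher), from 0.28 (B2M) to 1.37 (HLA-F), with NLRC5 at -0.09 (adjusted p 0.076). Both were set against the same scrambled libraries. Against wild-type cells, shRNA4057 gave 7 higher and 1 lower (31.7% called, 16% higher and 15.7% lower) and shRNA4058 gave 6 higher and 1 lower (44% called, 23% higher and 21.1% lower), and the lower gene was NLRC5 each time, at -0.20 and -0.45.

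The hairpins differed from each other in 5 of the 9 genes in HSB-2 (24.8% of genes called, 14.3% lower). B2M was higher with shRNA4057 than with shRNA4058 by 0.31 on the log2 scale (adjusted p 4.1e-07) and NLRC5 by 0.25 (adjusted p 1.7e-04), while HLA-F was lower by a log2 difference of -0.42, HLA-C of -0.19 and HLA-B of -0.13. The HLA-B difference was not called without shRNA4057 replicate 2 (adjusted p 0.10). TAP1, TAP2, PSMB9 and HLA-E were not called different, with log2 differences of 0.02, -0.04, -0.06 and -0.09. HLA-E was called lower with the size factors of DESeq2 (-0.12, adjusted p 0.031) or its Wald test (-0.12, adjusted p 0.022). For HLA-B, HLA-C, HLA-E, HLA-F and PSMB9 the order of the group means in HSB-2 was scrambled, wild-type, shRNA4057, shRNA4058 from low to high, of which only the last step was not called, for HLA-E and PSMB9.

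In Jurkat the pooled comparison gave another picture. Only TAP2 was called against scrambled cells, as higher (28% of genes called, 12.4% higher and 15.7% lower), and against wild-type cells 0 of the 9 passed edgeR's test (8.41% of genes called, 3.1% higher and 5.31% lower) or that of DESeq2, with 1 of them, TAP2, at an unadjusted p under 0.05. The median log2 fold change of the 9 genes was -0.05 against scrambled and -0.0030 against wild-type cells, beside 0.02 for all genes tested in each.

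Taken one by one, HLA-B, HLA-E, TAP1 and NLRC5 were called higher with shRNA4057 and lower with shRNA4058 against scrambled Jurkat cells. Against wild-type cells this held for HLA-B, HLA-C, B2M, TAP1 and NLRC5. The HLA-E value for shRNA4057 against wild-type cells was 0.10 (adjusted p 0.067). The SE of the pooled HLA-B value (0.28) was far above that in HSB-2 (0.063). HLA-B was at 179.6 and 179.5 CPM in the wild-type, 198 and 201 in the scrambled, 251.1 and 245 in the shRNA4057 and 127 and 137 in the shRNA4058 libraries. shRNA4057 libraries were thus above, and shRNA4058 libraries below, all 4 control libraries. Against scrambled cells HLA-B changed on the log2 scale by 0.31 (SE 0.036, adjusted p 9.5e-08) with shRNA4057 and -0.59 (SE 0.036, adjusted p 2.5e-12) with shRNA4058. NLRC5 showed the same split, at 59.5 and 60.4 CPM in the wild-type, 50.3 and 51.6 in the scrambled, 77.5 and 74.3 in the shRNA4057 and 38.6 and 42.2 in the shRNA4058 libraries. The log2 values of NLRC5 were 0.58 (SE 0.045, adjusted p 1.8e-10) with shRNA4057 and -0.33 (SE 0.046, adjusted p 1.7e-06) with shRNA4058 against scrambled cells.

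For HLA-E and B2M the shRNA4058 libraries stood apart. HLA-E was at 128 and 136 CPM in the wild-type, 127 and 133 in the scrambled, 143 and 139 in the shRNA4057 and 76.0 and 82.2 in the shRNA4058 libraries, which gave -0.72 (SE 0.041, adjusted p 7.5e-13) for shRNA4058 and 0.11 (SE 0.04, adjusted p 0.021) for shRNA4057 against scrambled cells. The latter call was lost without scrambled replicate 1 (adjusted p 0.19) or shRNA4057 replicate 1 (0.15). B2M was at 418 and 403 CPM in the wild-type, 465 and 431 in the scrambled, 450.4 and 465 in the shRNA4057 and 302 and 299 in the shRNA4058 libraries, which gave -0.58 (SE 0.035, adjusted p 3.1e-12) for shRNA4058 and 0.03 (SE 0.035, adjusted p 0.5) for shRNA4057. With shRNA4057, B2M was within the range of the scrambled libraries but above both wild-type libraries, and was called higher than in wild-type cells (0.16, adjusted p 0.001).

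HLA-C lay like HLA-B below the controls with shRNA4058, at group means of 262 ± 6.56 CPM in wild-type, 295 ± 2.19 in scrambled, 311 ± 8.15 in shRNA4057 and 205 ± 6.54 in shRNA4058 cells (SD, n = 2). It fell with shRNA4058 (-0.52 against scrambled, adjusted p 3.2e-11) and with shRNA4057 was called higher against wild-type (0.24, adjusted p 9.5e-06) but not against scrambled cells (0.08, adjusted p 0.088). HLA-F stayed between 8.78 and 12.03 CPM in all 8 Jurkat libraries and was not called for either hairpin against either control. TAP1 was 0.18 with shRNA4057 (adjusted p 0.0011) and -0.22 with shRNA4058 (adjusted p 1.7e-04) on the log2 scale against scrambled cells.

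TAP2 and PSMB9 did not split. TAP2 was at 24.1 and 22.3 CPM in the wild-type, 19.7 and 18.6 in the scrambled, 28.8 and 29.1 in the shRNA4057 and 26.2 and 23.5 in the shRNA4058 libraries. All shRNA libraries lay above the scrambled libraries, which were the lowest, and the log2 fold change against scrambled cells was 0.51 (SE 0.10, adjusted p 0.011) for the pooled hairpins, 0.59 for shRNA4057 and 0.37 for shRNA4058. The pooled call was lost without scrambled replicate 1 (0.55, adjusted p 0.073) or replicate 2 (0.47, adjusted p 0.11), and against wild-type cells TAP2 was not called (0.24, adjusted p 0.19). PSMB9 was at 32.6 and 32.2 CPM in the wild-type, 37.3 and 39.3 in the scrambled, 35.6 and 32.2 in the shRNA4057 and 26.5 and 27.9 in the shRNA4058 libraries. It was lower than in scrambled cells with shRNA4057 (-0.17, adjusted p 0.0086, not called without scrambled replicate 2 or shRNA4057 replicate 2, adjusted p 0.20 and 0.18) and with shRNA4058 (-0.49, adjusted p 5.0e-08), and against wild-type cells with shRNA4058 only (-0.25, adjusted p 6.1e-04).

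In counts, shRNA4057 against scrambled Jurkat cells gave 5 of the 9 genes higher and 1 lower (50% of genes called, 22.7% higher and 27.3% lower), and shRNA4058 gave 1 higher and 7 lower (46.5% called, 26.7% lower). Against wild-type cells they gave 6 higher and 0 lower (36.7% called, 15.4% higher and 21.2% lower) and 0 higher and 7 lower (35.9% called, 13.9% higher and 21.9% lower). Compared directly, all 9 genes were higher with shRNA4057 than with shRNA4058 (33.9% called, 17.7% higher), from 0.22 for TAP2, whose call was lost without shRNA4058 replicate 2 (adjusted p 0.15), to 0.91 for NLRC5. USP7 itself was lower with shRNA4057 than with shRNA4058 in Jurkat (-0.77, adjusted p 4.5e-14), while its class I levels were the higher ones. Scrambled cells differed from wild-type Jurkat cells in 6 of the 9 genes (25.9% called): HLA-B, HLA-C, B2M and PSMB9 were higher by 0.13 to 0.24, and TAP2 (-0.28) and NLRC5 (-0.24) lower. Of these, B2M was not called without wild-type replicate 2 (adjusted p 0.11) or scrambled replicate 1 (0.24), and TAP2 not without wild-type replicate 1 (0.054).

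**Figure D3:**
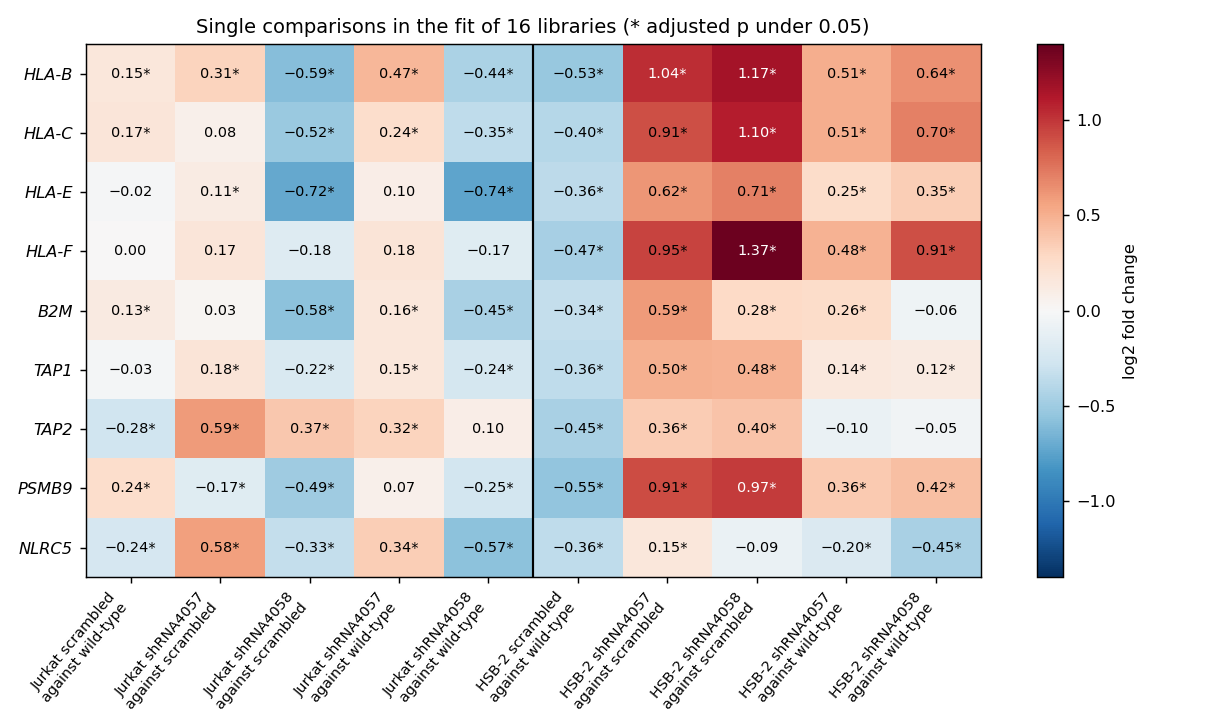
Log2 fold change (colour and number) of the 9 genes (rows) in 10 single comparisons (columns, Jurkat left and HSB-2 right of the line) from the fit of all 16 libraries, with an asterisk where the adjusted p was under 0.05. The HSB-2 columns for both hairpins against scrambled are red but for NLRC5 at -0.09, while against scrambled the Jurkat column is red for shRNA4057 but for PSMB9 at -0.17, and blue for shRNA4058 but for TAP2 at 0.37.

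The difference between the lines was tested as an interaction, the pooled effect against scrambled cells in HSB-2 minus that in Jurkat. It was called, and positive, for 7 of the 9 genes (37.7% of genes called, 20.6% higher): PSMB9 (1.27, adjusted p 2.3e-05), HLA-C (1.203, adjusted p 0.0011), HLA-B (1.18, adjusted p 0.01), HLA-F (1.17, adjusted p 8.9e-04), HLA-E (0.91, adjusted p 0.025), B2M (0.69, adjusted p 0.037) and TAP1 (0.50, adjusted p 0.02). TAP2 (-0.10, adjusted p 0.54) and NLRC5 (-0.15, adjusted p 0.75) were not called. With wild-type cells as the control, an alternative added after the data were seen, only HLA-F (0.71, adjusted p 0.039) and PSMB9 (0.49, adjusted p 0.028) were. With that control 4338 of 22748 genes were called, so the share called among the 9 was near that over all genes. The calls of HLA-E, B2M and TAP1 were each lost without any one of the 4 scrambled libraries, with adjusted p from 0.050 to 0.12, and that of B2M also without either HSB-2 shRNA4057 library (0.062 and 0.061) and with the replicate block (0.068). Correcting for GC content and length ended the calls of TAP1 (0.18, adjusted p 0.27) and HLA-E (0.61, adjusted p 0.081). It also lowered HLA-B to 0.90, HLA-C to 0.86, HLA-F to 0.84 and PSMB9 to 1.14, and raised B2M to 0.83, all still called.

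The lines also differed without any shRNA. Wild-type HSB-2 cells had higher CPM than wild-type Jurkat cells for 7 of the 9 genes (68.1% of genes called, 33.5% higher). The difference was largest for HLA-B (1.89, SE 0.037) and HLA-E (1.45, SE 0.040). TAP2 was lower (-0.56), and PSMB9 was not called different (0.10, adjusted p 0.086). How well the HLA reads of each line match the hg19 reference was not tested, and these SEs do not measure it. To compare genes with each other, CPM was divided by the length of the Ensembl canonical transcript. In wild-type Jurkat cells the order in CPM per kb was B2M (435 ± 11.4, SD, n = 2), HLA-C (170.0 ± 4.25), HLA-B (117 ± 0.0418), HLA-E (51.8 ± 2.18), PSMB9 (31.9 ± 0.313), TAP1 (22.5 ± 0.777), NLRC5 (8.84 ± 0.0866), HLA-F (6.83 ± 0.541) and TAP2 (4.11 ± 0.226). In wild-type HSB-2 cells B2M (789 ± 19.2) was followed by HLA-B (434 ± 7.24) ahead of HLA-C (242 ± 1.52) and HLA-E (141 ± 1.70), TAP1 (41.6 ± 0.434) stood ahead of PSMB9 (34.3 ± 0.216), NLRC5 (15.9 ± 0.120) and HLA-F (14.8 ± 0.691) lay close to each other, and TAP2 (2.79 ± 0.0710) was last again. The SDs of neighbours did not overlap in either order, but they measure only the spread of 2 libraries and not the choice of length. The union of all exons was 4623 bases for HLA-B against 1536 for its canonical transcript, and 2507 against 1542 for HLA-C. The order of the heavy chains therefore depends on the length used. In both lines the TAP2 level per kb was thus far under that of its partner TAP1.

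The rest of the pathway was read from lists of known components. In HSB-2, 4 of 7 further proteasome subunits and activators were higher against scrambled cells and 0 lower, beside 20.3% higher and 17.8% lower over all genes. They were led by PSMB10 (1.24, adjusted p 9.8e-06), PSMB8 (0.38) and the activator PSME1 (0.23), all of them interferon-inducible parts of the immunoproteasome. Against wild-type cells 3 were higher, beside 13.3% over all genes. In Jurkat 0 were higher and 5 lower against scrambled cells, beside 12.4% higher and 15.7% lower over all genes. Among the lower were PSME1 (-0.56, adjusted p 7.0e-04), PSMB10 (-0.55) and the constitutive subunit PSMB6 (-0.38). Against wild-type cells, however, edgeR's test called 0 of the 7, with 1 at an unadjusted p under 0.05, beside 8.41% called over all genes. The median over the list was 0.18 in HSB-2 and -0.33 in Jurkat against scrambled cells, beside -0.02 and 0.02 for all genes tested.

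Of 7 genes for peptide loading and trimming, 2 were higher and 2 lower in HSB-2 against scrambled cells, where 38.1% of all genes were called. In Jurkat 2 were higher and 1 lower, where 28% were. TAPBP, or tapasin, which bridges TAP and the heavy chain, rose in HSB-2 by 0.60 on the log2 scale (adjusted p 7.7e-04) and its relative TAPBPL by 0.50, while the chaperone CALR was at -0.48 there (adjusted p 3.2e-04). In Jurkat the higher genes were the aminopeptidases ERAP1 (0.33) and ERAP2 (0.31), and the lower one CALR (-0.75, adjusted p 6.2e-04). CALR was the gene of this list that was lower in both lines, also against wild-type cells (-0.44 in HSB-2 and -0.41 in Jurkat). Of 4 other class I and class I-like heavy chain genes, 3 were higher in HSB-2 against scrambled cells, beside 20.3% over all genes. Among them were HFE (1.53, from 0.700 ± 0.0319 CPM in scrambled to 2.34 ± 0.581 with shRNA4058) and MR1 (0.66, adjusted p 8.5e-05), which presents vitamin metabolites. Against wild-type cells HFE was not called (0.23, adjusted p 0.53). In Jurkat edgeR's test called 0 of the 3 tested against scrambled cells, with 0 at an unadjusted p under 0.05.

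Among 11 transcriptional regulators of class I genes, 4 were higher and 2 lower in HSB-2 against scrambled cells, beside 20.3% higher and 17.8% lower over all genes. IRF1, an interferon-induced activator of class I promoters, was at 102 ± 2.84 CPM in scrambled, 158 ± 2.11 in wild-type, 217 ± 0.205 in shRNA4057 and 217 ± 6.58 in shRNA4058 cells, a log2 fold change of 1.10 (adjusted p 1.6e-06) against scrambled and 0.45 (adjusted p 4.6e-04) against wild-type cells. NFYC (0.52), a subunit of the factor that binds CCAAT, and IRF2 (0.51) were also higher. RFXAP (-0.43) and NFYB (-0.27), named here as the 2 lower genes after their values were seen, were lower. In Jurkat 1 was higher, NFYB (0.51), and 2 lower, RELA (-0.46) and RFX5 (-0.39), a subunit of the factor on the X box, and IRF1 was not called (-0.21, adjusted p 0.057). The Jurkat count is near the 28% called over all genes. Against wild-type cells 3 were higher and 0 lower in HSB-2 (13.3% and 11.8% over all genes), and 1 higher and 1 lower in Jurkat (3.1% and 5.31%).

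Of 10 interferon receptor and signalling genes, 8 were higher and 0 lower in HSB-2 against scrambled cells, with a median of 0.35, beside 20.3% higher and 17.8% lower over all genes. Against wild-type cells 4 were higher and 1 lower, beside 13.3% and 11.8%. STAT2, a transcription factor of interferon signalling, rose by 0.54 against scrambled cells (adjusted p 7.6e-04). IRF9, its partner, was at 4.01 ± 0.266 CPM in scrambled but 12.2 ± 1.002 in wild-type cells, so its log2 fold change of 1.68 against scrambled stood beside 0.06 (adjusted p 0.74) against wild-type cells. In Jurkat 0 were higher and 2 lower against scrambled cells, near the 15.7% called lower over all genes, among them IFNGR2 (-0.63), and against wild-type cells edgeR's test called 0, with 3 at an unadjusted p under 0.05.

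**Figure D4:**
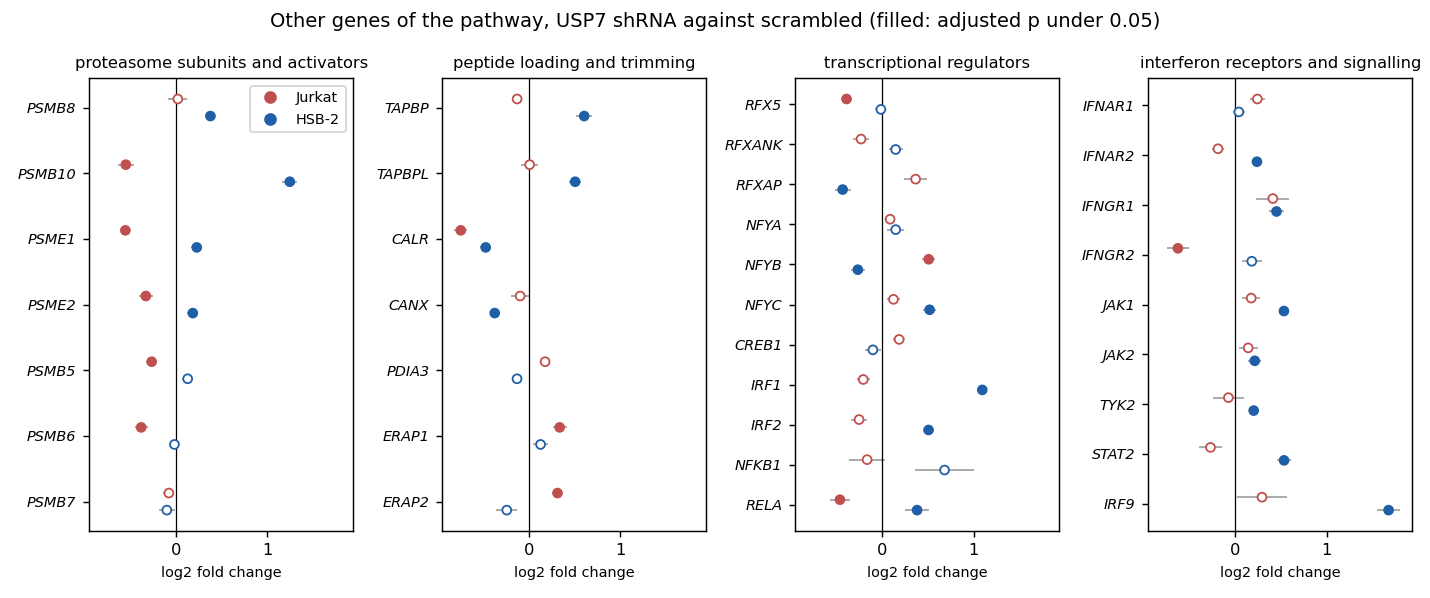
Pooled log2 fold change against scrambled cells (x axis) of other genes of the pathway in 4 panels, Jurkat in red and HSB-2 in blue, with bars of 1 SE and filled symbols where the adjusted p was under 0.05. IRF9 (1.68), PSMB10 (1.24) and IRF1 (1.10) lie farthest to the right in HSB-2, and CALR (-0.75) farthest to the left in Jurkat.

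The cells' identity was checked against marker lists. T lineage markers summed to between 1502 and 2004 CPM in the Jurkat libraries and between 939.9 and 1679 CPM in those of HSB-2. Some of them were low: in HSB-2 CD4 reached at most 0.356 CPM, CD28 1.94, CD2 4.96 and CD8A 6.55, and in Jurkat CD8A reached 1.42. The markers moved with the class I genes in HSB-2. There 9 of 10 were called higher and 0 lower with USP7 shRNA against scrambled cells (20.3% higher over all genes), and 5 and 0 against wild-type cells (13.3%). For Jurkat 1 was higher and 5 lower against scrambled cells (12.4% and 15.7% over all genes), and 0 and 3 against wild-type cells (3.1% and 5.31%). In Jurkat their sum was 1932 to 2004 CPM in scrambled, 1749 to 1779 in wild-type and 1502 to 1644 in shRNA libraries. In HSB-2 their sum was 939.9 to 989 CPM in scrambled, 1169 to 1178 in wild-type and 1436 to 1679 in shRNA libraries. Their part in the class I result was not tested. Markers of myeloid and erythroid cells were near 0: myeloid markers summed to at most 0.958 CPM and erythroid markers to at most 1.90 CPM in any library, and HBB had 0 counts in all 16. Of the markers of professional antigen presentation, CD74 reached at most 6 counts and HLA-DRA at most 10. Other class II genes were low but present, such as HLA-DMA at 1.78 to 5.58 CPM in Jurkat. B lineage markers summed to at most 4.61 CPM in HSB-2 and, nearly all from CD79A, to between 22.0 and 64.8 CPM in Jurkat.

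MHC class II genes served as a contrast. Of 10 listed, 4 could be tested in HSB-2, where 3 were higher against scrambled cells (20.3% over all genes) and 1 against wild-type cells (13.3%). Their levels were far under those of class I: HLA-DRB1 was at 0.0280 ± 0.0168 CPM in scrambled, 0.369 ± 0.0305 in wild-type and 1.77 ± 0.157 in shRNA4058 cells. In Jurkat 0 were higher and 4 of the 6 tested lower against scrambled cells (15.7% lower over all genes), and 1 was lower against wild-type cells (5.31%). Those lower against scrambled cells included HLA-DPA1 (0.482 ± 0.0519 CPM in scrambled and 0.0454 ± 0.0197 in shRNA4058 cells), HLA-DRB1 (-1.38, adjusted p 0.0013) and HLA-DMA (-1.05). CIITA, the class II counterpart of NLRC5, had at most 22 counts in any library.

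To find genes whose pattern was most like that of the 9, log2 group means over the 8 groups were centred within each line, and each gene with a mean of at least 1 CPM was correlated with the mean profile of the 9. Over these 8 means the members themselves had Pearson's r of 0.997 (TAP1), 0.98 (HLA-B), 0.94 (HLA-E and HLA-C), 0.90 (PSMB9), 0.86 (B2M), 0.85 (HLA-F), 0.57 (TAP2) and 0.54 (NLRC5). Each member is part of that mean profile, which raises its r. Among pairs of members r was highest for HLA-B with HLA-C (0.981) and lowest for HLA-F with NLRC5 (0.0622). The 5 other genes with the highest r among 14045 were GPSM3 (0.996), GMIP (0.994), ENSG00000229368, which has no symbol (0.993), RPS6KA1 (0.992) and PLEKHG2 (0.990). GPSM3, which lies in the MHC region, was at 80.1 ± 2.49 CPM in scrambled and 147 ± 10.6 in shRNA4058 HSB-2 cells. All 8 means share libraries and scaling across genes, and these values are a description with no test.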

How the data were processed

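Ribosome-depleted RNA of Jurkat and HSB-2 cells was sequenced in 16 libraries, 8 groups of 2. The values deposited by the authors are raw counts of reads per Ensembl gene, made per the labels with STAR and BWA, HTSeq (0.6.1p1) and hg19. The annotation release and the strand setting are not given in the sources used here. The file gives no symbols, and 55538 of its 57820 identifiers were matched to one. Gene positions and canonical transcript lengths are from GENCODE on GRCh37, and promoters from RefSeq on GRCh38.p14.

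Counts were filtered (filterByExpr), scaled (TMM) and fitted with the quasi-likelihood F-test of edgeR (4.0.16) in R (4.3.3), with Benjamini-Hochberg adjustment over all genes tested and a threshold of 0.05. In each line the 4 shRNA libraries were pooled against the 2 scrambled or the 2 wild-type libraries. Single hairpins and controls were compared in 1 fit of all 16 libraries (23063 genes), and the lines by an interaction term in the 12 shRNA and scrambled libraries. The pooled and interaction fits counted the 2 libraries of a hairpin as separate replicates. USP7 was knocked down with only 2 hairpins per line, so these p-values do not measure how hairpins vary. Each SE is the log2 fold change divided by the square root of F. Scripts were tested on simulated counts. The 9 genes and the lists were chosen with earlier results of these data known, and every other gene named belongs to a list, by the largest changes among its called members or as a marker, or to the 5 most alike genes. Some members of the lists are counted but not reported here by name. Alternatives were DESeq2 (1.42.0), DESeq2 size factors, no filter, an offset for GC content and length, hairpins as separate groups, a replicate block, summed heavy chains and leaving out each library. Total counts of 76.6 to 235 M per library leave counting error small for the 9 genes, whose lowest count was 939. It is large at the lowest levels printed for other genes: HLA-DRB1 had as few as 3 counts in an HSB-2 library and HLA-DPA1 as few as 4 in a Jurkat library. Intervals of counting error alone are not given.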

Additional observations from a re-analysis of the deposited data

Results flagged for a closer look

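The effect of USP7 shRNA against scrambled cells differed between HSB-2 and Jurkat, by the interaction term of edgeR's quasi-likelihood test, in 7 of the 9 class I genes. On the log2 scale the HSB-2 effect minus the Jurkat effect was 1.18 (adjusted p 0.01) for HLA-B, 1.203 (adjusted p 0.0011) for HLA-C, 0.91 (adjusted p 0.025) for HLA-E, 1.17 (adjusted p 8.9e-04) for HLA-F, 0.69 (adjusted p 0.037) for B2M, 0.50 (adjusted p 0.02) for TAP1 and 1.27 (adjusted p 2.3e-05) for PSMB9. In HSB-2 all 4 shRNA libraries were above both scrambled libraries in each of these genes, and in Jurkat the 4 shRNA libraries were not on 1 side of the scrambled libraries for HLA-B, HLA-C, HLA-E, HLA-F, B2M and TAP1 but were below them for PSMB9. Leaving out any one of the 4 scrambled libraries ended the calls of HLA-E, B2M and TAP1 (adjusted p from 0.050 to 0.12). Leaving out either HSB-2 shRNA4057 library ended that of B2M. Correction for GC content and length ended those of HLA-E (0.61, adjusted p 0.081) and TAP1 (0.18, adjusted p 0.27), and the replicate block that of B2M (0.69, adjusted p 0.068). With the correction for GC content and length HLA-B was at 0.90, HLA-C at 0.86, HLA-F at 0.84, PSMB9 at 1.14 and B2M at 0.83, all called.

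Against wild-type cells the same differences were 0.51 for HLA-B, 0.64 for HLA-C, 0.58 for HLA-E, 0.71 for HLA-F, 0.23 for B2M, 0.17 for TAP1 and 0.49 for PSMB9, with calls for HLA-F and PSMB9 alone (4338 of 22748 genes called). The scrambled libraries stood below the wild-type libraries in HSB-2 for all 9 genes, while in Jurkat they stood above them for HLA-B, HLA-C, B2M and PSMB9. With each hairpin taken alone in the fit of all 16 libraries, the HLA-B difference was 0.72 for shRNA4057 and 1.76 for shRNA4058, and that of PSMB9 1.09 and 1.47. In none of 18 sets of 4 shRNA libraries, 1 for each of the 9 genes and each line, did a single library lie apart by Dixon's test. Each set held 2 libraries of each hairpin, so where the hairpins differed the test could hardly flag a library, and no conclusion is drawn from it.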

How the results depend on the processing

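DESeq2, its size factors in edgeR, the unfiltered table and the offset for GC content and length moved no count of called genes among the 9 by more than 1.5 times, and of 1568 values under alternatives 50 changed sign, 49 of them called in neither fit. With the hairpins as separate groups, Jurkat against scrambled gave 2 higher and 5 lower (1 and 0 when pooled) and against wild-type 1 higher and 3 lower (0 and 0). The offset left HLA-E (0.61, adjusted p 0.081) and TAP1 (0.18, 0.27) without a call in the difference between lines. For that difference, with wild-type cells as control 2 genes were higher (7 with scrambled), with shRNA4057 alone 2 were lower (0 when pooled), and NLRC5 turned to 0.24 with shRNA4058 alone.

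Replicate numbers were shared across groups, and same-numbered samples correlated in their deviations from the group means by -0.23 to 0.23 in Jurkat and -0.17 to 0.12 in HSB-2. These values cannot decide if some groups shared a batch, because each group has only 2 libraries. The replicate block left 0 genes lower in HSB-2 against wild-type (1 without it, NLRC5, adjusted p 0.058), took B2M from the difference between lines (0.69, adjusted p 0.068) and changed no other call of the 9 genes.

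Leaving out 1 library gave 0 to 1 higher and 0 to 1 lower for Jurkat against scrambled, 0 to 1 lower for Jurkat shRNA4057 against scrambled, 1 to 2 lower for Jurkat scrambled against wild-type, 3 to 5 higher and 0 to 1 lower for HSB-2 against wild-type, 0 to 1 lower for HSB-2 shRNA4058 against scrambled, and 4 to 7 higher for the difference between lines. It also ended TAP1 calls of shRNA4057 against wild-type in Jurkat (without wild-type replicate 1 or shRNA4057 replicate 1) and in HSB-2 (without shRNA4057 replicate 1), and of shRNA4058 against wild-type in HSB-2 (without wild-type replicate 2).

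Over all genes, called genes went from 5965 to 11837 (Jurkat against scrambled), 1798 to 8570 (Jurkat against wild-type), 8049 to 12077 (HSB-2 against scrambled) and 5010 to 9490 (HSB-2 against wild-type) with the hairpins as separate groups. Jurkat against wild-type gave 2932 with DESeq2, 451 with the block (24.4% higher against 36.9%) and 0 without either wild-type library, 833 without shRNA4057 replicate 2 and 993 without shRNA4058 replicate 2. Jurkat against scrambled gave 1873 and 1434 without scrambled replicate 1 or 2 (31.2% and 30.6% higher against 44.1%), HSB-2 against scrambled 3801 and 4518 without scrambled replicate 1 or 2, HSB-2 against wild-type 1210 and 1119 without wild-type replicate 1 or 2, HSB-2 shRNA4057 against shRNA4058 3713 without shRNA4057 replicate 2 (5716 with it), and the difference between lines 4338 with wild-type cells as control (8559 with scrambled). Leaving out a library does not show that library to be a cause, and what caused these changes was not tested.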
